A study of Rattus norvegicus with 10 samples.

Results

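The 39 genes described here encode the enzymes and transporters that take up glucose, break it down to pyruvate and lactate, move lactate between cells and pass pyruvate to the mitochondrion. The set also covers the kinases that set fructose-2,6-bisphosphate, the kinases that switch off pyruvate dehydrogenase, glycogen enzymes and the glycerol phosphate shuttle. The members were chosen as gene symbols, and each was represented by the RNA record with the highest count among the records of that symbol. All 39 listed symbols had a record with at least 44 counts over the 10 libraries, so 39 of the 22431 records tested and of the 32041 RNA records in the count table belong to the set. Total counts of the member records ran from 416 for Pdk4 to 247849 for Aldoa.

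Messenger RNA was sequenced from the left hippocampus, CA3 and dentate gyrus, of adult male Sprague-Dawley rats that weighed 330 to 371 g at surgery. The TBI group, 5 rats, received a lateral fluid percussion injury, in which a pressure pulse strikes the exposed dura. The methods of the study give 3.32 atm as the mean impact of its injured rats. The sham group, 5 rats, had the same anaesthesia and craniectomy with no impact. Both groups were sampled 3 months after surgery, and each rat gave 1 library. According to the methods of the study, these TBI rats had no EEG monitoring and showed no seizures related to handling. Earlier data cited there put epilepsy in only a minority of rats at this time. The comparison is thus of injured with sham-operated rats and not of epileptic with other rats. The same methods give fewer control rats for the messenger RNA of this model than the labels do. The labels were followed. Libraries are named here by group and by a replicate number that follows the sample order and pairs no rats.

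In the brain, glucose enters through GLUT transporters and is phosphorylated by hexokinase, and glycolysis then yields pyruvate and ATP. Astrocytes hold most of the brain's glycogen and release lactate, which monocarboxylate transporters carry across the membranes of glia, neurons and endothelium. Lactate dehydrogenase converts pyruvate and lactate into each other, and the pyruvate dehydrogenase complex commits pyruvate to the citrate cycle. Several of the steps have isoenzymes with a preferred cell type, such as the neuronal enolase Eno2 and the more widely expressed Eno1.

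Libraries held 23425817 to 31671838 counts. Ribosomal RNA records took 59.0% and 58.5% of the counts in sham 4 and sham 5 and 12.5% to 26.2% in the other 8 libraries. Over the 500 most variable records, sham 3 had a mean correlation of 0.929 with the TBI libraries and 0.901 with the other sham libraries, and sham 1 was also slightly nearer to the TBI libraries (0.899 against 0.897). The tissue carried neuronal and glial markers, with summed levels of 8 neuronal markers of 2333 to 3053 CPM (counts per 1000000 counts of the library, sized with TMM factors). Markers of the labelled CA3 and dentate gyrus were present, and so were CA1 markers, whose summed level was 75.2 to 163 CPM in sham and 57.0 to 535 CPM in TBI rats. Astrocyte markers summed to 1709 to 2550 CPM in sham and 1867 to 3426 CPM in TBI rats, and 2 of 8 (Gfap and Aldh1l1) had an unadjusted p under 0.05, both higher in TBI. For microglia the sums were 191 to 300.3 CPM in sham and 231 to 319 CPM in TBI rats, with 3 of 9 markers at that threshold.

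No member passed an adjusted p of 0.05 in the edgeR quasi-likelihood test of TBI against sham, and neither did any of the 22431 records (0% called). The lowest adjusted p was 0.555 among members and 0.477 among all records. At an unadjusted p under 0.05 there were 3 members of 39, or 7.69%, beside 7.89% of all records. All 3 were higher in TBI, beside 4.89% of all records called higher, and 0 were lower, beside 3.00% of all records called lower. Without sham 5, however, 0 members were higher and 3 lower (Slc2a3, Tpi1 and Pdk1) at that p, and without TBI 1 0 were higher and 2 lower (Dld and Pdk3). The 3 were the lactate transporters Slc16a1 and Slc16a3 and the glycogen phosphorylase Pygm. No member had CPM values in the TBI group that lay wholly above or below the sham values, which was the case for 0.923% of all records. The members' share was thus close to that of all records.

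The intervals around the members' changes were narrow. The median standard error was 0.0956 on the log2 scale, and the 95% interval lay within ±0.5 for 35 of 39 members and within ±1 for 37 of 39. The exceptions to the wider bound were Pdk4 and Gpd1. In bulk tissue, fewer cells of a type and less RNA per cell cannot be told apart, and this holds for each value below. The median log2 change of the members was -0.06 beside -0.01 over all records, and 27 of 39 were below 0 (69.2%) beside 52.2% of all records.

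**Figure D1:**
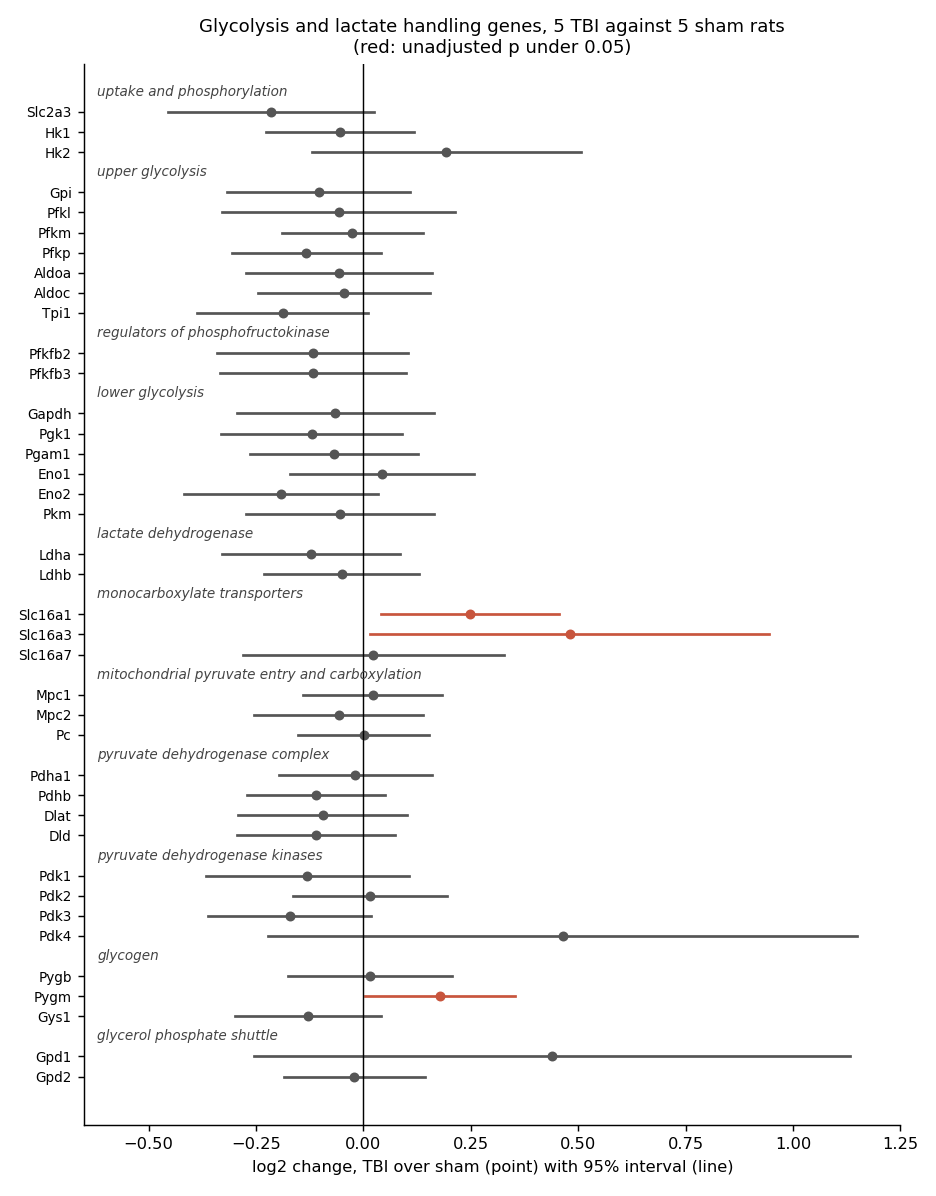
Log2 change of each of the 39 members in 5 TBI against 5 sham rats (x axis), grouped by role (y axis), with points for the fitted change and lines for the 95% interval. Slc16a1, Slc16a3 and Pygm, in red, have an unadjusted p under 0.05, and the intervals of the other 36 members include 0.

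Lactate and pyruvate cross membranes on monocarboxylate transporters, and these held 2 of the 3 members at the unadjusted threshold. Slc16a1 encodes MCT1, found in endothelium and glia. Its CPM was 16.9, 18.4, 17.8, 16.0 and 15.2 in sham rats 1 to 5 and 23.6, 19.9, 16.3, 19.1 and 21.5 in TBI rats 1 to 5. In 4 of the 5 TBI rats the level was above that of every sham rat, and TBI 3 lay inside the sham range. The means were 16.9 ± 1.298 and 20.1 ± 2.75 CPM (SD, n = 5 each). The log2 change was 0.25 (SE 0.0986, adjusted p = 0.555 by edgeR). With single rats left out in turn, the unadjusted p was under 0.05 in 7 of 10 fits, all but those without sham 4, sham 5 or TBI 1, with log2 changes of 0.18 to 0.31. The sham libraries rich in ribosomal RNA, sham 4 and 5, had the lowest Slc16a1, and without both the log2 change was 0.19 and the p no longer under 0.05.

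Slc16a3 encodes MCT4, the low-affinity exporter of strongly glycolytic cells such as astrocytes. It was a low-count record, with 12 to 81 reads per library. Slc16a3 was at 1.34, 0.791, 1.36, 1.36 and 0.750 CPM in sham rats 1 to 5 and at 1.65, 2.16, 1.17, 1.27 and 1.63 CPM in TBI rats 1 to 5. TBI rats 1, 2 and 5 were above all sham rats, and TBI rats 3 and 4 fell among them. Slc16a3 had a log2 change of 0.48 (SE 0.222, adjusted p = 0.622 by edgeR), and the unadjusted p was under 0.05 in 5 of the 10 fits with a rat omitted. It was not under 0.05 without sham 2, sham 5, TBI 1, TBI 2 or TBI 5. Without both sham 4 and sham 5 the log2 change was 0.44 and the p no longer under 0.05. Slc16a7, which encodes the high-affinity neuronal transporter MCT2, had a log2 change of 0.02 with a 95% interval of -0.28 to 0.33. Its group means were 3.02 ± 0.306 and 3.06 ± 0.552 CPM (SD, n = 5 each).

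Markers of cells that carry these transporters differed between rats as well. Per rat, the astrocyte sum was 3426, 3255, 1867, 2586 and 2718 CPM in TBI rats 1 to 5. TBI 3, with the lowest Slc16a1 and Slc16a3 of its group, also had the lowest astrocyte sum of the TBI rats. Most of the sum was Gfap, at 2308, 2191, 980, 1704 and 1820 CPM in these rats. The median of the markers' log2 CPM, each centred on its mean over rats, was also lowest of the TBI group in TBI 3, at -0.10. In sham rats the lowest astrocyte sum was in sham 1, at 1709 CPM, and the lowest Slc16a1 and Slc16a3 in sham 5. By the centred median of the astrocyte markers, sham 5 was the lowest sham rat, at -0.26 beside -0.06 in sham 1. Of the TBI rats, TBI 3 had the lowest microglial sum too, at 231 CPM. The lowest microglial sum of the sham rats was in sham 5, at 191 CPM. By centred median sham 2 was slightly lower in these markers, at -0.339 beside -0.326 in sham 5. Endothelial markers summed to 63.0 to 86.5 CPM in sham and 74.3 to 83.8 CPM in TBI rats, and 0 of 6 reached an unadjusted p of 0.05. The lowest endothelial sums of the groups were those of sham 5 and TBI 3. The part of cell composition in the transporter values was not tested. The 3 symbols whose log2 CPM followed Slc16a1 most closely over the 10 rats, among 12283, were Mdfic (Pearson r = 0.957), B2m (0.951), the light chain of MHC class I, and Sp140 (0.942). All 3 were themselves higher in TBI at an unadjusted p under 0.05 by edgeR, so the likeness includes the group difference. Mdfic and Sp140 were low, with means of 0.940 and 1.08 CPM. The correlations are descriptions over rats of both groups that share the libraries' depth, and they are the highest of a search over all these symbols.

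**Figure D2:**
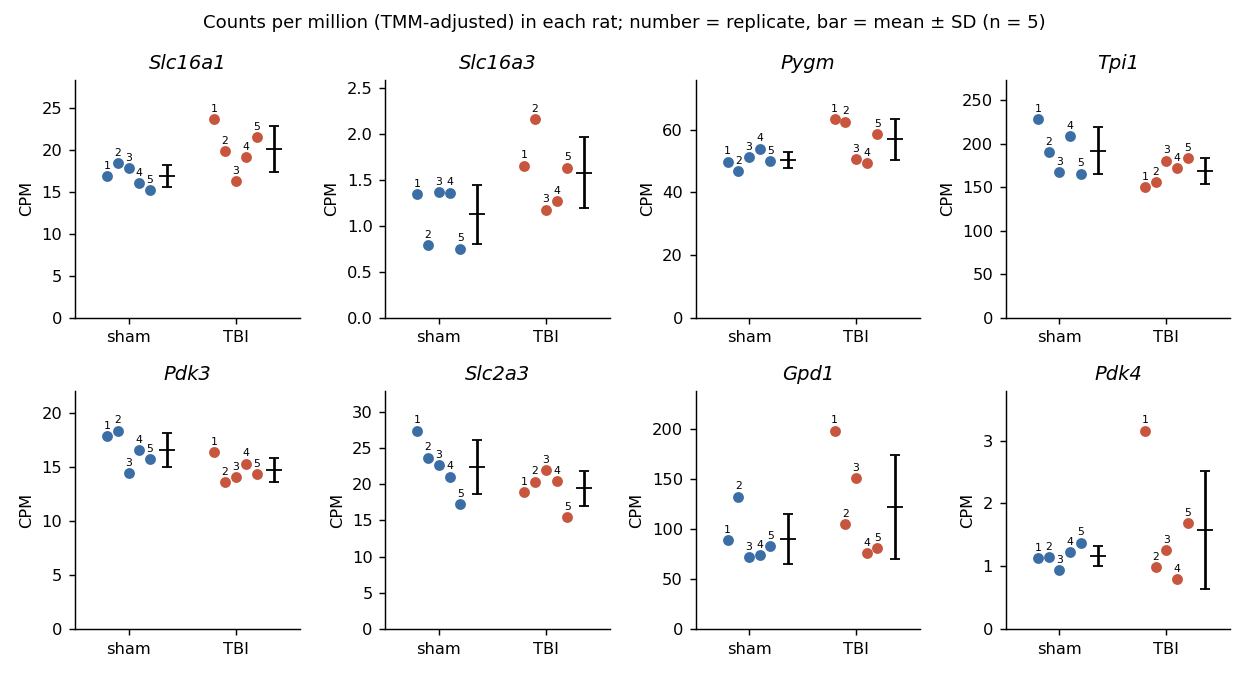
CPM (y axis, linear from 0) of the 6 members with the smallest p and of Gpd1 and Pdk4 in each of 5 sham (blue) and 5 TBI (red) rats, with replicate numbers beside the points and bars for mean ± SD. Slc16a1, Slc16a3 and Pygm are above every sham rat in 4, 3 and 3 of the 5 TBI rats, and the groups overlap in every panel.

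Glycogen enzymes gave the third member at the unadjusted threshold. Pygm, the muscle-type glycogen phosphorylase that astrocytes also express, was at 49.9, 46.9, 51.3, 54.0 and 50.0 CPM in sham rats 1 to 5. In TBI rats 1 to 5 it was at 63.4, 62.6, 50.8, 49.5 and 58.6 CPM. TBI rats 1, 2 and 5 were again above all sham rats, and TBI rats 3 and 4 were within the sham range. Pygm had a log2 change of 0.18 (SE 0.0837, adjusted p = 0.628 by edgeR), and the unadjusted p was under 0.05 in 3 of the 10 fits with a rat omitted, those without sham 4, TBI 3 or TBI 4. Without both sham 4 and sham 5 the log2 change was 0.21 and the p no longer under 0.05. Of the skeletal muscle markers, Ckm, Mb and Tnnt3 were too low to be tested. The summed level of the other 3 was 14.3 to 17.5 CPM in sham and 12.8 to 18.9 CPM in TBI rats, most of it from Acta1, with means of 15.1 and 15.6 CPM. All 3 had log2 changes above 0, and 1 of 3, the myosin gene Myh2, had an unadjusted p under 0.05, with means of 0.499 and 0.984 CPM and 4 of 5 TBI rats above every sham rat.

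The TBI rats above all sham rats for Slc16a3 and Pygm were also above them in the summed markers of CA1 and of the ependyma. Single markers did not all follow. Fibcd1 of CA1 was at 42.3 CPM in TBI 5 and 46.2 CPM in sham 3. Tmem212 of the ependyma was at 1.68 and 1.09 CPM in TBI rats 1 and 2 and 1.77 CPM in sham 4. The CA1 marker sum was 117, 75.2, 163, 115 and 119 CPM in sham rats 1 to 5 and 323, 535, 150.4, 57.0 and 222 CPM in TBI rats 1 to 5. For the ependyma, the ciliated lining of the ventricles, the sum was 9.02, 13.5, 17.8, 11.8 and 10.2 CPM in sham rats 1 to 5 and 25.6, 26.9, 16.0, 17.5 and 27.7 CPM in TBI rats 1 to 5. TBI rats 1, 2 and 5 exceeded every sham rat in both sums, and TBI rats 3 and 4 did so in neither. At an unadjusted p under 0.05, all higher, were 2 of 5 CA1 markers, 2 of 3 ependymal, 2 of 5 blood, 3 of 6 meningeal and 1 of 6 choroid plexus markers. The summed blood markers ran from 189.9 to 353 CPM in sham and from 275 to 430.0 CPM in TBI rats. Meningeal markers summed to 6.25 to 19.9 CPM in sham and 12.1 to 20.1 CPM in TBI rats, and choroid plexus markers reached 35.8 CPM in sham and 36.2 CPM in TBI rats. The part of these cells in the values of Slc16a3 and Pygm was not tested.

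Pygb, the brain-type phosphorylase, was at 279.9, 223, 237, 219.5 and 189 CPM in sham rats 1 to 5 and 232, 250.2, 221, 225 and 232 CPM in TBI rats 1 to 5. All 5 TBI rats lay inside the sham range, and the log2 change was 0.01 (95% interval -0.18 to 0.21). Gys1, the glycogen synthase of brain and muscle, had means of 27.0 ± 2.42 CPM in sham and 24.7 ± 1.53 CPM in TBI rats (SD, n = 5 each) and a log2 change of -0.13 (95% interval -0.30 to 0.04).

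Glucose uptake and phosphorylation were represented by Slc2a3, Hk1 and Hk2. Slc2a3 encodes GLUT3, the main glucose transporter of neurons, and was among the 6 members with the smallest p without reaching 0.05. Its CPM was 27.4, 23.7, 22.7, 21.1 and 17.2 in sham rats 1 to 5 and 18.9, 20.4, 21.9, 20.4 and 15.4 in TBI rats 1 to 5. Every TBI rat was below the sham mean of 22.4 ± 3.71 CPM (SD, n = 5), but sham 5 was lower than 4 of the 5 TBI rats. For Slc2a3 the log2 change was -0.22 (SE 0.114, adjusted p = 0.683 by edgeR). The hexokinase gene Hk1, whose product sits on mitochondria in brain, was at 608, 559.9, 538, 605 and 516 CPM in sham rats 1 to 5 and at 477, 534, 574, 588 and 549 CPM in TBI rats 1 to 5. Here 4 of the 5 TBI rats fell inside the sham range, and the log2 change was -0.05 (95% interval -0.23 to 0.12). Hk2, the inducible hexokinase, had a log2 change of 0.19 with a wide 95% interval of -0.12 to 0.51.

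The steps from glucose-6-phosphate to triose phosphates are run by Gpi, the phosphofructokinases Pfkl, Pfkm and Pfkp, the aldolases Aldoa and Aldoc, and Tpi1. All 7 had log2 changes below 0, from -0.19 to -0.03, and 0 of 7 reached an unadjusted p of 0.05. Tpi1, triose phosphate isomerase, had the smallest p of the 7. It was at 228, 190.1, 167, 208 and 166 CPM in sham rats 1 to 5 and at 150.5, 156, 180.5, 172 and 183 CPM in TBI rats 1 to 5. Again every TBI rat was below the sham mean, of 192 ± 26.9 CPM (SD, n = 5), while 3 of them were above the lowest sham rat. The log2 change was -0.19 (SE 0.0949, adjusted p = 0.652 by edgeR).

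Aldoa, the aldolase of muscle and of most brain cells, was at 977, 764.5, 799, 929 and 788 CPM in sham rats 1 to 5 and at 639.9, 774, 893, 891 and 896 CPM in TBI rats 1 to 5. Only TBI 1 was outside the sham range, and the log2 change was -0.06 (95% interval -0.27 to 0.16). A further record of Aldoa had a log2 change of -0.04. The astrocytic aldolase Aldoc had means of 779 ± 81.4 CPM in sham and 755 ± 87.1 CPM in TBI rats (SD, n = 5 each) and a log2 change of -0.04 (95% interval -0.25 to 0.16).

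Pfkfb3 and Pfkfb2 make and remove fructose-2,6-bisphosphate, the strongest activator of phosphofructokinase. Pfkfb3 was at 37.4, 27.6, 27.6, 26.0 and 24.2 CPM in sham rats 1 to 5 and at 29.0, 25.5, 25.6, 28.0 and 24.1 CPM in TBI rats 1 to 5. Sham 1 was the highest of the 10 rats, and the other 9 lay close together. Both Pfkfb3 and Pfkfb2 had a log2 change of -0.12, with 95% intervals of -0.33 to 0.10 and -0.34 to 0.10.

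The later steps of glycolysis, where ATP is recovered, comprised Gapdh, Pgk1, Pgam1, Eno1, Eno2 and Pkm. Of these 6, 5 had log2 changes below 0 and 0 of 6 reached an unadjusted p of 0.05. Pkm, the pyruvate kinase of brain and muscle, was at 599.6, 442, 461, 499 and 405 CPM in sham rats 1 to 5 and at 393, 430.3, 481, 502 and 512 CPM in TBI rats 1 to 5. The groups overlapped over most of their range, and the log2 change was -0.05 (95% interval -0.27 to 0.16). Gapdh, often used as a reference gene, had a log2 change of -0.07 (95% interval -0.29 to 0.16), and Pgk1 one of -0.12 (95% interval -0.33 to 0.09).

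The enolase genes had log2 changes of opposite sign. Eno2 was at 549, 403, 398, 475 and 397 CPM in sham rats 1 to 5 and at 313, 369, 436, 427 and 399.5 CPM in TBI rats 1 to 5. Eno1 was at 221, 160.4, 174, 179.6 and 176 CPM in sham rats 1 to 5 and at 154, 170.0, 189.8, 208 and 217 CPM in TBI rats 1 to 5. Neither reached an unadjusted p of 0.05, with log2 changes of -0.19 for Eno2 (95% interval -0.42 to 0.03) and 0.04 for Eno1 (95% interval -0.17 to 0.26).

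A ratio of counts within a library does not depend on how libraries are scaled, and 10 pairs of related members were compared in this way. The count ratio of Eno1 to Eno2 was 0.403, 0.398, 0.437, 0.378 and 0.444 in sham rats 1 to 5 and 0.492, 0.461, 0.435, 0.486 and 0.544 in TBI rats 1 to 5. It was above every sham rat in all TBI rats but TBI 3, which lay within the sham range. The mean log2 ratio was 0.23 higher in TBI than in sham rats, above the sham mean in 5 of 5 TBI rats, with p = 0.0238 in a two-sided exact permutation test and p = 0.159 after adjustment over the 10 pairs. With 5 rats against 5, this test cannot give a p below 0.00794.

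For the phosphofructokinase genes, the count ratio of Pfkp, the platelet type that is abundant in brain, to the muscle type Pfkm was 0.590, 0.557, 0.562, 0.594 and 0.583 in sham rats 1 to 5. In TBI rats 1 to 5 it was 0.547, 0.487, 0.532, 0.573 and 0.542, below the lowest sham rat in all but TBI 4. The mean log2 ratio was -0.11 in TBI relative to sham, with p = 0.0317 by the exact permutation test and an adjusted p of 0.159. Pfkp itself was at 293, 251.5, 249.9, 276 and 239 CPM in sham rats 1 to 5 and 218, 218, 246, 262 and 251 CPM in TBI rats 1 to 5. Pfkm was at 497, 452, 445, 465 and 409.5 CPM in sham rats 1 to 5 and 398, 448, 462, 457 and 464 CPM in TBI rats 1 to 5. Each gene's groups overlapped, with log2 changes of -0.13 (95% interval -0.31 to 0.04) for Pfkp and -0.03 (95% interval -0.19 to 0.14) for Pfkm.

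The other 8 ratios had exact permutation p-values of 0.143 or more. The ratio of Ldha to Ldhb, the muscle-type and heart-type subunits of lactate dehydrogenase, differed by -0.07 on the log2 scale (p = 0.294), and that of Aldoa to Aldoc by -0.01 (p = 0.873), both by the exact permutation test. The groups overlapped in all 10 ratios.

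**Figure D3:**
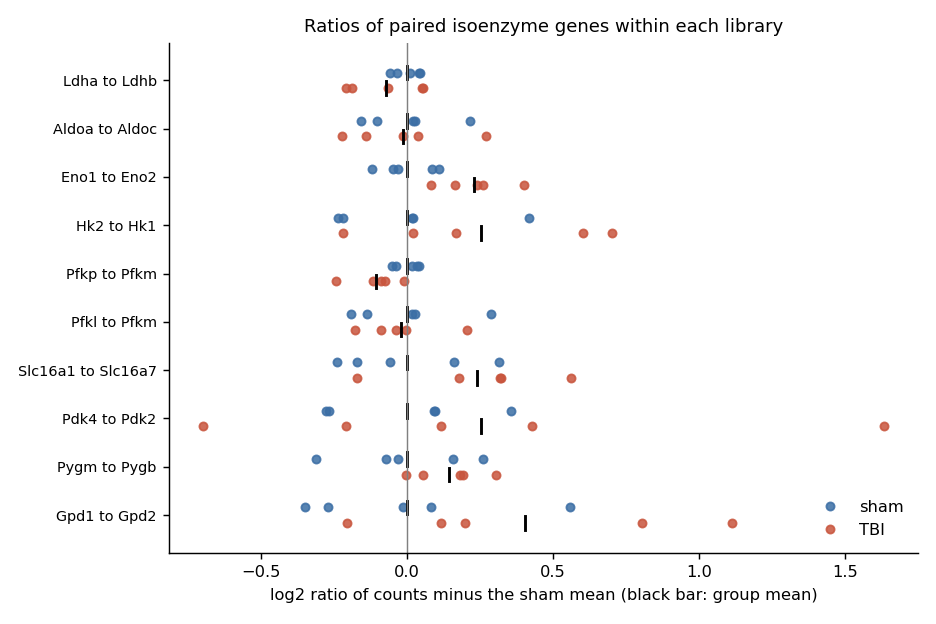
Log2 ratio of the counts of paired members in each library, minus the mean of the 5 sham rats (x axis), for 10 pairs (y axis), with points for rats (blue sham, red TBI) and black bars for group means. The Eno1 to Eno2 ratio is shifted by 0.23 and the Pfkp to Pfkm ratio by -0.11, and the groups overlap in every row.

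At the end of the pathway, Ldhb was at 360.5, 301, 300.4, 335 and 284 CPM in sham rats 1 to 5 and at 279, 304, 295, 298 and 351 CPM in TBI rats 1 to 5. Nearly the whole TBI range lay inside the sham range, and the log2 change was -0.05 (95% interval -0.23 to 0.13). Ldha had a log2 change of -0.12 (95% interval -0.33 to 0.09).

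From the hexokinases to the lactate dehydrogenases there were 17 enzyme genes, and 15 of them had a log2 change below 0 without any reaching an unadjusted p of 0.05. That sign depended on the scaling, since 0 of 17 were below 0 with total count scaling and 2 of 17 with total counts outside ribosomal RNA, where the median over all records was 0.50 and 0.14. Relative to those medians 15 of 17 were lower in both. The summed level of the 17 was 7527, 6163, 6108, 6994 and 5802 CPM in sham rats 1 to 5 and 5258, 5958, 6514, 6546 and 6680 CPM in TBI rats 1 to 5. Sham 1 had the highest sum and TBI 1 the lowest, while the ranges of the other rats overlapped. Sham 1 was the highest of the 10 rats for 15 of the 17 genes, and TBI 1 the lowest for 15 of the 17. Over all records tested, sham 1 was the highest rat for 14.4% and TBI 1 the lowest for 12.4%.

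The median log2 change of the 17 enzymes was -0.06 over all rats. With single rats left out it ran from -0.11, without sham 5 or TBI 5, to -0.02 without sham 1 and -0.01 without TBI 1. Without both sham 1 and TBI 1 it was 0.03, with 6 of 17 below 0, but these rats were picked as the ends of the same values, which fixes the direction of that shift. The summed neuronal markers were highest in sham 1, at 3053 CPM, and lowest in TBI 2, at 2333 CPM, followed by TBI 1, at 2449 CPM. By median centred log2 CPM of these markers, sham 1 was again the highest rat, at 0.21, and TBI 1 the lowest, at -0.17, followed by TBI 2, at -0.14. In dentate granule cell markers sham 1 was the lowest rat, with a summed level of 75.4 CPM beside 124 to 264 CPM in the others. Whether the enzyme values follow the tissue taken from these rats was not tested.

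**Figure D4:**
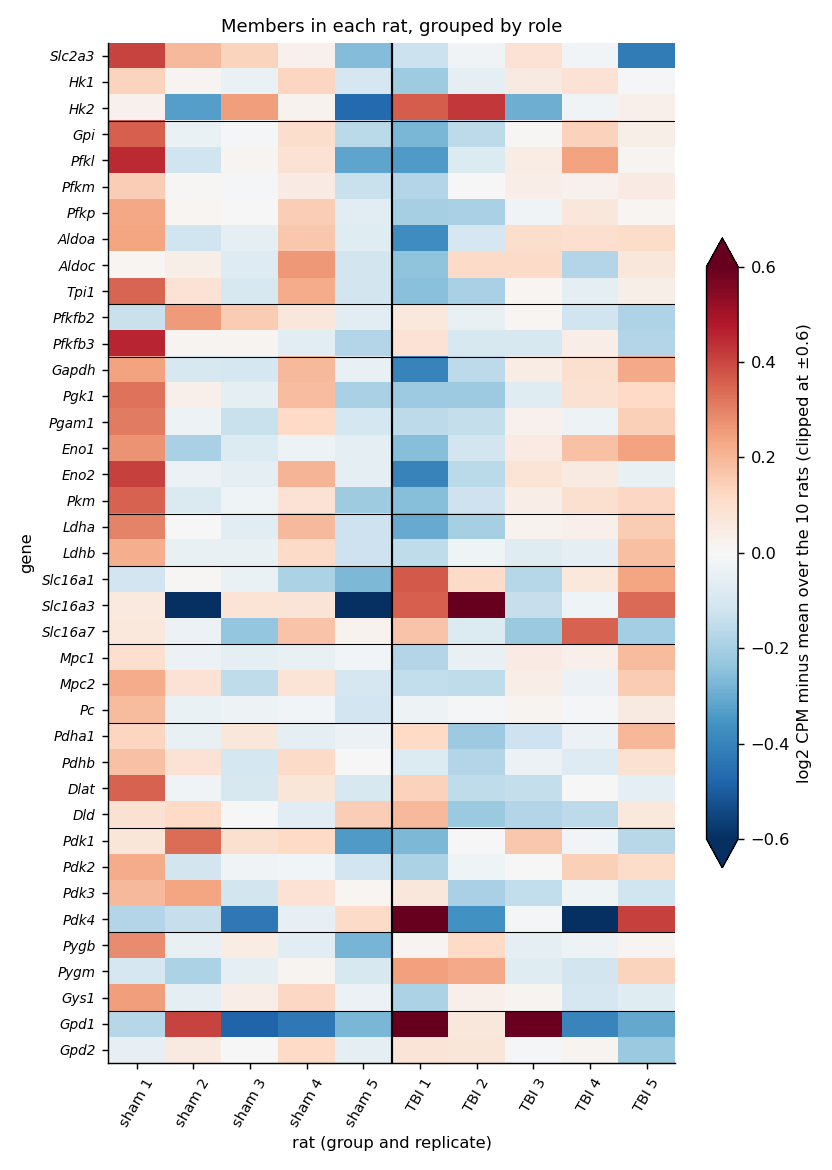
Log2 CPM of each member (y axis, grouped by role) in each rat (x axis, 5 sham then 5 TBI) minus that gene's mean over the 10 rats, shown in colour from blue (lower) to red (higher) and clipped at ±0.6. Sham 1 is red and TBI 1 blue for most enzymes from Gpi to Ldhb, whereas Slc16a1, Slc16a3, Pdk4 and Gpd1 are red in TBI 1.

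Pyruvate enters mitochondria on the carrier formed by Mpc1 and Mpc2, whose log2 changes were 0.02 (95% interval -0.14 to 0.18) and -0.06 (95% interval -0.26 to 0.14). Pyruvate carboxylase, Pc, an astrocytic enzyme that refills the citrate cycle, was at 116, 99.3, 100.1, 101 and 94.1 CPM in sham rats 1 to 5. In TBI rats 1 to 5 Pc was at 100.04, 101, 103, 101 and 106 CPM. The TBI values lay together within the sham range, and the log2 change was 0.001 with a 95% interval of -0.15 to 0.15.

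The pyruvate dehydrogenase complex was covered by Pdha1 and Pdhb of its first component, Dlat of the second and Dld of the third. All 4 had log2 changes below 0, from -0.11 to -0.02, and all 4 intervals lay within ±0.3. Pdha1 was at 81.7, 72.4, 78.2, 71.6 and 72.9 CPM in sham rats 1 to 5 and at 81.0, 64.1, 68.4, 72.8 and 85.8 CPM in TBI rats 1 to 5. TBI rats lay below, within and above the sham range (log2 change -0.02, 95% interval -0.20 to 0.16).

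Pyruvate dehydrogenase kinases phosphorylate and inactivate the complex. Pdk3 was at 17.8, 18.3, 14.4, 16.5 and 15.7 CPM in sham rats 1 to 5 and at 16.3, 13.6, 14.02, 15.3 and 14.3 CPM in TBI rats 1 to 5. All 5 TBI rats were below the sham mean and 3 were below the lowest sham rat. For Pdk3 the log2 change was -0.17 (SE 0.0907, adjusted p = 0.679 by edgeR). Pdk2 was at 239.5, 190.5, 202, 203 and 190.0 CPM in sham rats 1 to 5 and at 180.1, 201, 206, 227 and 222 CPM in TBI rats 1 to 5. Apart from TBI 1, the TBI rats lay inside the sham range, and the log2 change was 0.01 (95% interval -0.16 to 0.19).

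Pdk4, the isoform induced by fasting and glucocorticoids, was the member with the fewest reads, 18 to 109 per library. It was at 1.12, 1.15, 0.942, 1.22 and 1.37 CPM in sham rats 1 to 5 and at 3.16, 0.985, 1.26, 0.791 and 1.68 CPM in TBI rats 1 to 5. TBI 1 stood far above the others, and the log2 change of 0.46 had a 95% interval of -0.22 to 1.15. For Pdk1 the log2 change was -0.13 (95% interval -0.37 to 0.11).

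The glycerol phosphate shuttle, which carries reducing equivalents from the cytosol to the mitochondrion, showed a wide spread between rats. Gpd1, its cytosolic enzyme, known in brain as an oligodendrocyte enzyme regulated by glucocorticoids, was at 88.9, 133, 71.8, 74.3 and 82.7 CPM in sham rats 1 to 5. In TBI rats 1 to 5 it was at 199, 105, 151, 76.2 and 80.9 CPM. TBI rats 1 and 3 were above all sham rats, and TBI rats 4 and 5 were among the lower sham rats. Gpd1 had a log2 change of 0.44 (SE 0.305, 95% interval -0.25 to 1.13, adjusted p = 0.778 by edgeR), and the coefficient of variation within groups was 38.3%. With single rats left out, the log2 change of Gpd1 ran from 0.20 without TBI 1 to 0.62 without sham 2. The mitochondrial enzyme Gpd2 had a log2 change of -0.02 (95% interval -0.19 to 0.14).

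The wider pathway was read from a list of 105 further genes, of which 88 could be tested. Of these 88, 5 were higher and 2 lower at an unadjusted p under 0.05, beside 4.89% and 3.00% of all records, and none passed an adjusted p of 0.05. The median log2 change of the 88 was close to 0 (-0.0007). The smallest p belonged to Slc2a1, which encodes GLUT1, the glucose transporter of the blood-brain barrier and astrocytes. Slc2a1 was at 99.0, 90.2, 96.1, 90.3 and 76.5 CPM in sham rats 1 to 5 and at 119, 119, 119, 96.2 and 105 CPM in TBI rats 1 to 5. All TBI rats but TBI 4 were above the whole sham range. The log2 change was 0.30 (SE 0.0861, adjusted p = 0.483 by edgeR), and the unadjusted p was under 0.05 in all 10 fits with a rat omitted. It was also under 0.05 without sham 4 and 5, with a log2 change of 0.23, and not with the ribosomal RNA share as a covariate, with 0.21.

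Slc2a13, the proton-coupled myo-inositol transporter, was at 53.5, 75.0, 66.6, 65.1 and 69.4 CPM in sham rats 1 to 5 and at 56.2, 57.6, 60.6, 55.6 and 45.1 CPM in TBI rats 1 to 5. Sham 1 was among the TBI values, and the other sham rats were above all TBI rats. The log2 change was -0.26 (SE 0.0952, adjusted p = 0.533 by edgeR). When libraries were scaled by total counts it was 0.24, below the median of 0.50 over all records under that scaling. The unadjusted p of Slc2a13 was under 0.05 in all 10 fits with a rat omitted. It was not under 0.05 without both sham 4 and sham 5, with the ribosomal RNA share as a covariate, or with total counts outside ribosomal RNA. In the glycogen list 3 of 15 genes were higher at the unadjusted threshold. They were Stbd1, which tethers glycogen to membranes (log2 change 0.53), Phkg1, a catalytic subunit of phosphorylase kinase (0.39), and the liver-type phosphorylase Pygl (0.42), all 3 with means under 4 CPM.

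Among 15 hypoxia response genes, Ddit4, a stress-induced inhibitor of mTORC1, had a log2 change of 0.25. P4ha1, a collagen prolyl hydroxylase, had one of -0.19, and of 0.30 with total count scaling, where the median over all records was 0.50. With a rat omitted, the unadjusted p was under 0.05 in 8 of 10 fits for Ddit4 and 6 of 10 for P4ha1. That of P4ha1 was also not under 0.05 without both sham 4 and sham 5. The other 13 did not reach an unadjusted p of 0.05. Of the 16 citrate cycle genes, 14 had log2 changes below 0, beside 52.2% of all records, with the TMM scaling of the main fit. None reached that p, and all 16 intervals lay within ±0.3. Sham 4 was the highest rat for 8 of the 16 and sham 1 for 5, while sham 5 was the lowest for 7. All 4 malate-aspartate shuttle genes tested were below 0, from -0.14 to -0.07, without reaching that p, and sham 1 was the highest rat for all 4. Of the 8 general neuronal markers, 7 were below 0, with a median log2 change of -0.07.

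Glycolytic genes are textbook targets of hypoxia-inducible factors, which bind an element with ACGTG as a common core. This form alone, called the core below, was searched on both strands, where it reads ACGTG or CACGT. The windows ran from 250 bases before to 50 bases after RefSeq transcription starts (rat assembly GRCr8). A window was given for 35 of the 39 members, and 20 of the 35 (57.1%) held the core at least once. It was held by 25.5% of the 10011 tested symbols with a window and by 20.9% of all 27457 symbols. The median GC content of the windows was 61.7% for members, 60.3% for tested symbols and 51.7% for all. The core is a property of the letters only and marks no bound site. Stretches of 30 bases are shown on the plus strand, 5′ to 3′, with the core in capitals, for the 2 members at the unadjusted threshold whose window held it (that of Slc16a3 did not) and for Ldha and Pfkfb3, classical targets. They lie at chr2:194812432-194812461 for Slc16a1, chr1:213119707-213119736 for Pygm, chr1:106507999-106508028 for Ldha and chr17:71944879-71944908 for Pfkfb3, all upstream of the start.
Slc16a1: gcagcgcctagtCACGTGgcgggaaggggg
Pygm: gccaagaccctccCACGTccggggaggcgt
Ldha: agcctaCACGTGggttcccgCACGTccgct
Pfkfb3: cacccttctctcCACGTGaaagggggctgg

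The palindrome CACGTG holds the core on both strands and is present in the stretches of Slc16a1, Ldha and Pfkfb3. The changes of members with and without the core overlapped. The median log2 change was -0.06 for the 20 with it, from -0.19 to 0.25, and -0.05 for the 15 without it, from -0.19 to 0.48.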

How the data were processed

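Per the labels and the methods of the study, poly-A RNA was read as single reads of 36 cycles, and the submitters' processing notes name BWA and the rn4 genome. The authors deposited unnormalized read counts, a row for each RefSeq RNA record and a column for each rat. Their methods name Ensembl transcripts and a custom counting script, which was not reconciled with the RefSeq rows here. A blank entry and the unmapped reads, a median of 22.2% per library, were left out. Symbols came from the RefSeq table of another assembly, GRCr8, and matched 57.7% of tested rows. Of the members, 23 matched by the same record version and 16 by another version. Aldoa, Eno1 and Pfkfb2 have several records that may share reads, and strand use was not stated.

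Records with at least 44 counts in all were tested in R 4.3.3 by quasi-likelihood in edgeR 4.0.16 (glmQLFTest, robust, TMM), with Benjamini-Hochberg adjustment over all 22431, after a test on simulated counts. CPM is scaled to TMM library sizes and not to gene length, so levels are not compared between genes. Ratios were tested over all splits of the rats. The study's methods count fewer control rats for these libraries than the 5 sham rats of the labels, and do not say which, so the labels were followed. Without sham 4 and 5, the libraries rich in ribosomal RNA, none of the 3 members stayed under an unadjusted p of 0.05. P-values set the difference between groups against the spread between rats, and counts and intervals cover no error shared by a group. Alternatives used DESeq2 1.42.0, limma 3.58.1 and other scalings, filters and samples. Values in every rat are given for the 6 members with the smallest p, the member with the most counts in each role and members of ratios with an unadjusted p under 0.05. Up to 6 other pathway genes under that p are named, and Pygl, the seventh, was named after its values were seen, as were Gpd1's neighbours, Hk2, Pdk4 and genes given by interval only. The members and lists were chosen with earlier results of these data known.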

Additional observations from a re-analysis of the deposited data

Results flagged for a closer look

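In 5 of 98 groups of 5 values (39 members and 10 ratios in each group of rats), a single rat lay apart from the rest of its group by Dixon's criterion, and chance alone would mark about 4.9, or 1 in 20. Sham 1 accounts for 3 of them, with Pfkfb3 at 37.4 CPM beside 24.2 to 27.6 in the other sham rats, the pyruvate carrier gene Mpc1 at 59.4 CPM beside 53.4 to 54.7, and Pdk2 at 239.5 CPM beside 190.0 to 203. TBI 1 had Pfkm at 398 CPM beside 448 to 464 in the other TBI rats. Sham 2 had Gpd1 at 133 CPM beside 71.8 to 88.9 in the other sham rats.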

How the results depend on the processing

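No member passed an adjusted p of 0.05 under any alternative, which included DESeq2, the edgeR exact test and voom with sample weights. At an unadjusted p under 0.05, where 3 members stood, the count was 6 with total count scaling, 1 with DESeq2 (Slc16a1), 0 with voom, 1 with the ribosomal RNA share as covariate and 1 without sham rats 4 and 5 (Slc2a3, lower, in both), and 1 to 4 when each rat was left out (1 without sham 2 or TBI 2). The share of all records at that p was 16.9% with total count scaling, where that of the members was 15.4%, and 7.40% with DESeq2, 7.94% with voom, 4.42% with the covariate and 5.60% without sham rats 4 and 5. The count was 6 (15.4%, beside 11.5% of all records) without sham rat 3 and TBI rat 3, a pair picked from earlier results of these data, a choice that can itself raise calls. The members' median log2 change moved to 0.45 with total count scaling and 0.10 with total counts outside ribosomal RNA, where the median over all records was 0.50 and 0.14. Relative to those medians, 29 and 27 members were lower, as were 27 in the reported fit. Of the other pathway genes 7 stood at that p, and 11 with total count scaling, 4 with voom, 3 with the covariate and 4 to 9 when each rat was left out (4 without TBI 5). With total count scaling Slc2a13 changed sign to 0.24 and P4ha1 to 0.30, both still below the median of 0.50 over all records. Isoform ratios at that p numbered 2, and 1 without sham rats 4 and 5 (Pygm to Pygb, which was not among the 2), 1 without sham rat 3 and TBI rat 3 (Eno1 to Eno2), 0 without sham rat 1 and TBI rat 1 (an alternative added after the data were seen, in which the differences were 0.21 for Eno1 to Eno2 and -0.11 for Pfkp to Pfkm), and 1 to 2 when each rat was left out (1 without sham 1, sham 4, sham 5 or TBI 2). With 4 rats against 4 the smallest p the exact test allows is 0.0286. The causes were not tested. No paired analysis was possible because the replicate numbers follow sample order and pair no rats. Depth limits Pdk4 and Slc16a3, with totals of 416 and 420 reads.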

Other observations

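The glucose transporter genes of glia and endothelium (Slc2a1) and of neurons (Slc2a3) were set against each other after their values had been seen, so the ratio is given without a test. The count ratio of Slc2a1 to Slc2a3 was 3.61, 3.81, 4.24, 4.28 and 4.44 in sham rats 1 to 5 and 6.28, 5.82, 5.42, 4.71 and 6.80 in TBI rats 1 to 5. Every TBI rat was above every sham rat, with 4.71 in TBI 4 and 4.44 in sham 5 the nearest values. The ratio does not depend on library scaling. The groups overlapped in all 10 ratios listed above, and 0.923% of single records separated them. How many other pairs would separate the groups was not computed, and a pair picked by its values can do so through that choice.

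Gpd1 varied between rats in both groups, and its values were followed over all 12283 symbols after they had been seen. The log2 CPM most like it over the 10 rats were those of Vcan (Pearson r = 0.918), which encodes the matrix proteoglycan versican, Tnfrsf11a (0.910), Usp54 (0.908) and Cyth1 (0.901). None of these 4 reached an unadjusted p of 0.05 between TBI and sham. These correlations are descriptions over rats that share a library with both genes.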
